A study of Homo sapiens with 4 samples.

Results

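The let-7 passenger strands are the RNAs cut from the 3′ arm of the let-7 hairpins, listed in the data as hsa-let-7a-3p, hsa-let-7a-2-3p, hsa-let-7b-3p, hsa-let-7c-3p, hsa-let-7d-3p, hsa-let-7e-3p, hsa-let-7f-1-3p, hsa-let-7f-2-3p, hsa-let-7g-3p and hsa-let-7i-3p and written here without the species prefix. They were taken by name, 10 of the 2656 mature miRNAs counted, and each was also set against the 5p strand of its own hairpin. The libraries came from RD cells, a long-established line grown from an embryonal rhabdomyosarcoma and given no treatment before lysis. The input library holds small RNA of the lysate, and 3 further libraries hold RNA that biotinylated antisense oligonucleotides retained on streptavidin beads from native lysate. The EVEN and ODD oligonucleotides are 2 sets directed at exon 2 of HIPK3, the exon that forms the circular RNA circHIPK3 and that linear HIPK3 mRNA carries as well, and the LacZ oligonucleotides are directed at a bacterial mRNA. Each of these 4 groups was 1 library from 1 biological replicate of 1 cell line, so the differences below have no replicate check, hold between libraries, and carry no p-value. The muscle miRNAs that mark this kind of line were present in the input, with 125781 reads of miR-206, 41814 of miR-1-3p and 14975 of miR-133a-3p.

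Each let-7 precursor folds into a hairpin that Drosha and Dicer trim to a short duplex. An Argonaute protein keeps one strand of it, for let-7 nearly always the 5p strand, which represses growth-promoting mRNAs such as those of RAS, HMGA2 and LIN28. The 3p strand is mostly discarded and degraded, and the part that persists depends on strand choice and on the stability of the strand. A 3p strand retained by Argonaute has a seed of its own, bases 2 to 8, and therefore other target sequences than let-7.

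Mature sequences for 9 of the 10 strands were found in the RefSeq tables on GRCh38.p14. They are shown because the passengers are far less alike than the guides: the 8 let-7 guides have 1 seed among them, and the 9 passengers have 6. Capitals mark the seed, and sequences run 5′ to 3′. The first 3 strands share a seed, as do the next 2, and the last 4 each have their own.
let-7a-3p: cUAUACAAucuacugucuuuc
let-7b-3p: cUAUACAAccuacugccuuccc
let-7f-1-3p: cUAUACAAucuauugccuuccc
let-7a-2-3p: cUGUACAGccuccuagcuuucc
let-7g-3p: cUGUACAGgccacugccuugc
let-7c-3p: cUGUACAAccuucuagcuuucc
let-7d-3p: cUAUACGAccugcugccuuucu
let-7e-3p: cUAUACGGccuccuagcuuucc
let-7i-3p: cUGCGCAAgcuacugccuugcu

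All 9 passengers begin with C, whereas 7 of the 8 guides begin with U. The exception among the guides is let-7d-5p, which begins with A.
let-7d-5p: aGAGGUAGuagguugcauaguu
let-7i-5p: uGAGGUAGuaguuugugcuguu

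The passengers share 9 of their first 21 positions and the guides 15 of 22. The closest passengers, let-7b-3p and let-7f-1-3p, let-7a-2-3p and let-7c-3p, and let-7a-2-3p and let-7e-3p, differ at 2 of 22 positions. The sources used here do not state how reads matching several miRNAs were assigned, so small counts of these close strands are uncertain. The strands let-7a-2-3p, let-7c-3p and let-7e-3p share their last 7 bases and come from the hairpins known for leaving Drosha with the longer 3′ overhang. Precursors of the other passengers are known to be helped by a uridine added before Dicer cuts them.

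The 10 passenger strands together had 5389 of 2987858 miRNA reads in the input, 1159 of 425395 with LacZ probes, 280 of 98950 with EVEN probes and 290 of 426450 with ODD probes. These are 0.180% of input reads (95% exact binomial interval 0.176 to 0.185), 0.272% with LacZ (0.257 to 0.289), 0.283% with EVEN (0.251 to 0.318) and 0.0680% with ODD (0.0604 to 0.0763). The ODD library was thus the low one, while EVEN and LacZ had overlapping intervals above the input. A share of reads cannot tell less of these strands from more of all other miRNAs, and the guides of the same hairpins made up 23.5% of the input, 31.7% of the LacZ, 37.6% of the EVEN and 50.6% of the ODD library. Set against these guide reads, the passengers came to 0.767 reads per 100 guide reads in the input (0.746 to 0.788), 0.859 with LacZ (0.810 to 0.910), 0.753 with EVEN (0.667 to 0.847) and 0.134 with ODD (0.119 to 0.151). This ratio does not depend on the library total, but it rests on few strands. Without let-7d it was 0.434 in the input, 0.410 with LacZ, 0.190 with EVEN and 0.0284 with ODD probes, and without let-7d and let-7i it was 0.287, 0.0944, 0.204 and 0.0289. The ODD library was lowest in all 3 versions, whereas the closeness of EVEN to the input rests on let-7d-3p and that of LacZ on let-7i-3p. Intervals here cover counting error only, and if amplified copies were not collapsed by the kit's molecular identifiers, which the sources used here do not say, they are too narrow.

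**Figure D1:**
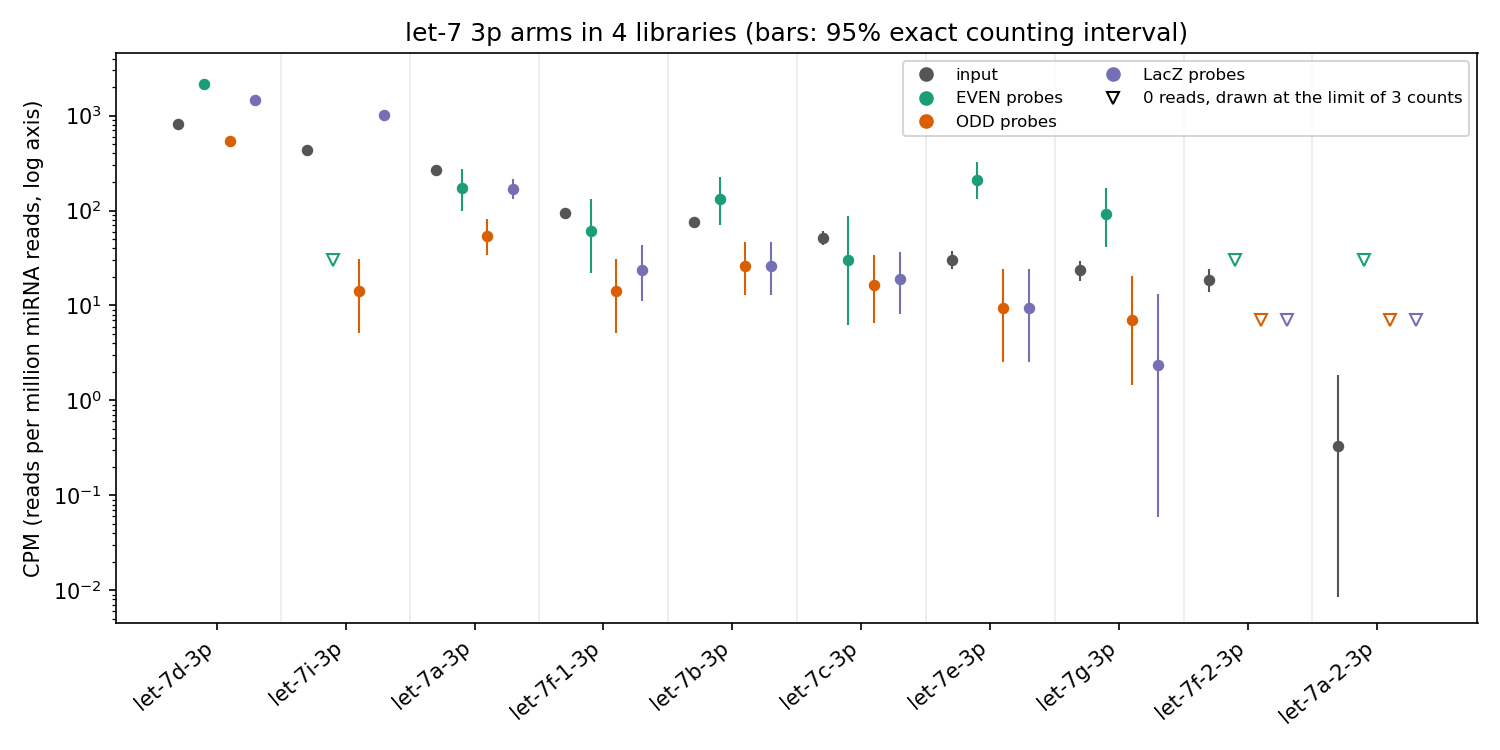
CPM (reads scaled to a common total, log axis) of each let-7 3p arm in the input, EVEN, ODD and LacZ libraries, with 95% exact counting intervals; open triangles mark 0 reads at the limit of 3 counts. let-7d-3p leads every library, and let-7i-3p is second in the input and with LacZ probes but has 0 reads with EVEN and 6 with ODD probes.

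In the input the order was let-7d-3p, let-7i-3p, let-7a-3p, let-7f-1-3p, let-7b-3p, let-7c-3p, let-7e-3p, let-7g-3p, let-7f-2-3p and let-7a-2-3p, from 812 CPM (reads scaled to a common library total) down to 0.335. Neighbouring intervals overlapped for let-7f-1-3p and let-7b-3p, for let-7e-3p and let-7g-3p and for let-7g-3p and let-7f-2-3p. With LacZ probes the same 3 strands led, without overlap. With EVEN and ODD probes let-7d-3p stood clear of the rest, and all neighbours below it overlapped. The strand let-7a-2-3p had 1 read in the input and 0 elsewhere, so nothing more can be said of it. The numbers of passenger strands with at least 20 reads were 9 in the input, 3 with LacZ and 2 each with EVEN and ODD probes.

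let-7d-3p is the passenger strand of the hairpin MIRLET7D, in an intron of the annotated gene AL158152.2 on chromosome 9 at 94178834 to 94178920, plus strand. Its hairpin is shown with the 3p arm in capitals, since this arm supplied most passenger reads of 3 libraries.
MIRLET7D: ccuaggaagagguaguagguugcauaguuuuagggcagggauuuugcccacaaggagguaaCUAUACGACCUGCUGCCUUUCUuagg
It had 2426 reads in the input, 621 with LacZ, 211 with EVEN and 230 with ODD probes. These are 812 CPM (780 to 845), 1460 CPM (1347 to 1579), 2132 CPM (1855 to 2440) and 539 CPM (472 to 614), 4 intervals that do not overlap, with EVEN highest and, by library totals, ODD lowest. It made up 45.0% of the passenger reads in the input, 53.6% with LacZ, 75.4% with EVEN and 79.3% with ODD probes.

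Against LacZ, let-7d-3p was 1.46-fold higher with EVEN probes (1.24 to 1.71) and for ODD probes 2.71-fold lower (2.32 to 3.16). The direct comparison put it 3.95-fold higher with EVEN than with ODD probes (3.26 to 4.79). Against the input it was 2.63-fold higher with EVEN (2.27 to 3.02), 1.80-fold higher with LacZ (1.64 to 1.96) and 1.51-fold below it for ODD (1.31 to 1.73). Its fall with ODD probes against LacZ, a log2 ratio of -1.43 by library totals, became -0.15 under TMM scaling and 0.013 under median-of-ratios scaling, so that its direction depends on the scaling. Those scalings move the median over every tested miRNA in that comparison from -1.79 to -0.50 and -0.35. ODD against the input turned as well, from a log2 ratio of -0.59 to 0.099 with TMM, 0.58 with median-of-ratios and 0.43 with totals that leave out each library's 10 most abundant miRNAs, which makes the input the lowest library. LacZ against the input stayed positive but ranged from 0.25 with TMM to 1.07 with those reduced totals, where library totals give 0.85.

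The ratio to its guide is free of that choice. let-7d-3p had 11.6 reads per 100 reads of let-7d-5p in the input (11.1 to 12.1), 17.6 with LacZ (16.1 to 19.1), 24.7 with EVEN (21.2 to 28.8) and 4.70 with ODD probes (4.10 to 5.36). No other let-7 hairpin came above 2.26 in any library. The ratio was 1.41-fold higher with EVEN than with LacZ probes (1.18 to 1.68), 3.74-fold lower with ODD than with LacZ probes (3.19 to 4.39) and 5.26-fold higher with EVEN than with ODD probes (4.28 to 6.46). By library totals the guide moved less than the passenger. Relative to LacZ, the share of let-7d-5p was 1.04 times as large in the EVEN library (interval 0.961 to 1.12). In the ODD library it was 1.38 times as large (interval 1.32 to 1.44). TMM and median-of-ratios scaling shift both strands of a library equally. For ODD, the shift that brings the passenger near its LacZ level therefore takes the guide further above LacZ. Which strand moved more with ODD probes thus depends on the scaling, although their ratio does not.

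let-7i-3p comes from MIRLET7I, in an intron of AC048341.1 on chromosome 12 at 62603686 to 62603769, plus strand. The hairpin is shown with the 3p arm in capitals, since this passenger differed most between the control and HIPK3 probes.
MIRLET7I: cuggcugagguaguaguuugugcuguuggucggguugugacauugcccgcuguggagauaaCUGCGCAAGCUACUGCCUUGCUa
The reads were 1286 in the input, 432 with LacZ, 0 with EVEN and 6 with ODD probes. In CPM these are 430 (407 to 455), 1016 (922 to 1116), 0, which allows up to 30.3, and 14.1 (5.16 to 30.6). Input and LacZ libraries were thus high and both HIPK3 pull-downs low. At the LacZ share, the EVEN library would have held 100.5 reads and the ODD library 433.

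By library totals this strand was the only passenger at least 2-fold above the input with LacZ probes, at 2.36-fold (2.11 to 2.63) or a log2 ratio of 1.24. That ratio was 0.64 with TMM and 0.96 with median-of-ratios factors, both under 2-fold, and 1.46 with totals without the 10 most abundant miRNAs, where let-7d-3p also passed 2-fold. By library totals let-7i-3p was below LacZ by at least 27.1-fold for EVEN and by 72.2-fold for ODD probes (32.9 to 198). Against the input it was at least 11.5-fold lower for EVEN and 30.6-fold lower for ODD probes (14.0 to 83.5). The log2 ratio of ODD to LacZ was -6.06 by library totals, -4.77 with TMM and -4.61 with median-of-ratios factors. That of ODD to the input was -4.82, -4.13 and -3.65 in the same order, so the size of these falls depends on the scaling. Both probe sets are compared with the same LacZ library, and the values against the input use another reference. The guide let-7i-5p had 98599, 19086, 2515 and 23901 reads in the input, LacZ, EVEN and ODD libraries. By library totals it was 1.77-fold lower than LacZ for EVEN (1.69 to 1.84) and 1.25-fold higher for ODD (1.23 to 1.27). It thus moved less than its passenger, in the same direction for EVEN and in the other for ODD. The ratio was 1.30 passenger reads per 100 guide reads in the input (1.23 to 1.38), 2.26 with LacZ (2.05 to 2.49) and 0.0251 with ODD probes (0.00921 to 0.0546), and 0 reads with EVEN probes allow up to 0.119. Against LacZ the ratio was at least 15.4-fold lower with EVEN and 90.2-fold lower with ODD probes (41.1 to 247). Of 55 hairpins outside let-7 tested for ODD against LacZ, 1 moved further down. let-7i-3p entered that comparison through its LacZ reads alone, so its place among them is a description.

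**Figure D2:**
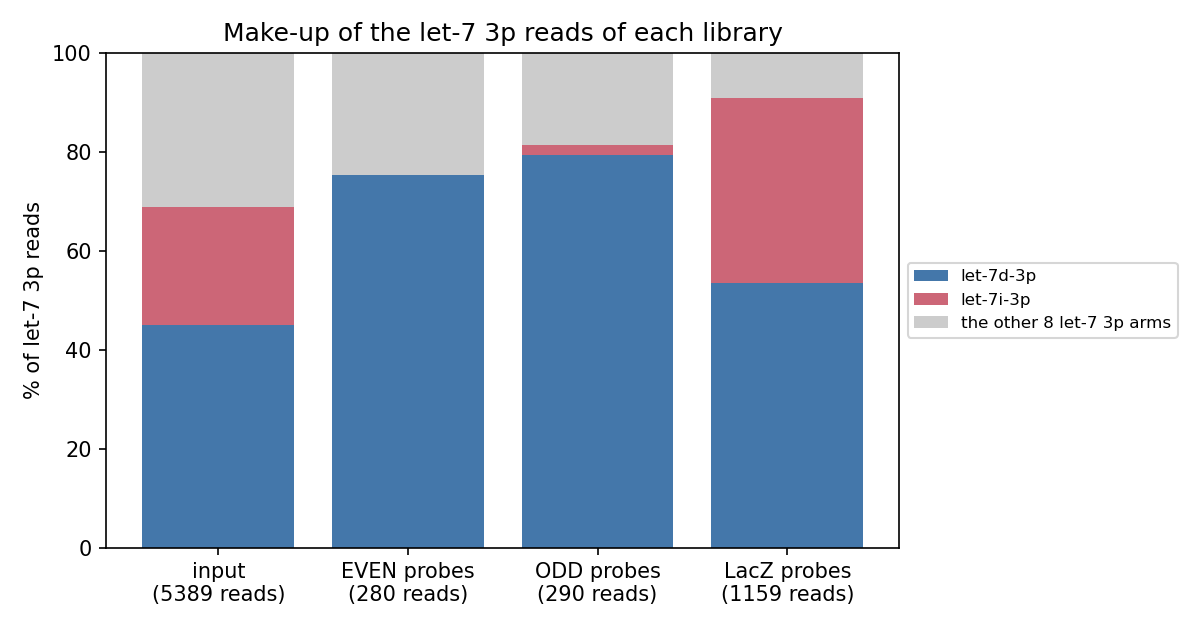
Stacked bars give the percent of let-7 3p reads that came from let-7d-3p, from let-7i-3p and from the other 8 strands in each library, with the number of reads under each bar. let-7i-3p makes up 23.9% in the input and 37.3% with LacZ probes, against 0% with EVEN and 2.07% with ODD probes.

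let-7e-3p, from MIRLET7E in an intron of SPACA6 on chromosome 19 at 51692786 to 51692864, plus strand, was 1 of 3 passengers, with let-7d-3p and let-7g-3p, whose EVEN interval lay above those of the 3 other libraries. Its hairpin is shown, with the 3p arm in capitals, because it alone was called higher for EVEN against LacZ. It entered that comparison only through its 21 EVEN reads, just over the minimum of 20, which let-7b-3p and let-7g-3p did not reach. With a minimum of 1 read, 4 of 8 tested passengers were higher, beside 149 of all 789 tested miRNAs, so being alone depends on that minimum.
MIRLET7E: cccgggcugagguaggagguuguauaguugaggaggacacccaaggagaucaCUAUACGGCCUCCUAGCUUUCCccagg
It had 91 reads in the input, 4 with LacZ, 21 with EVEN and 4 with ODD probes, or 30.5, 9.40, 212 and 9.38 CPM. The EVEN interval was 131 to 324 CPM. By fold, it was 22.6-fold above LacZ (7.62 to 90.4) and 22.6-fold above ODD (7.63 to 90.7), on only 4 reads in each of those libraries, and 6.97-fold above the input (4.12 to 11.3).

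Its guide was higher there as well, let-7e-5p by 2.07-fold against LacZ (1.98 to 2.17), so the passenger to guide ratio rose less than the level. The ratio was 0.390 per 100 guide reads in the input (0.314 to 0.479), 0.788 with EVEN (0.487 to 1.21), 0.0724 with LacZ (0.0197 to 0.186) and 0.0462 with ODD probes (0.0126 to 0.118). It was 10.9-fold higher with EVEN than with LacZ probes (3.66 to 43.6) and 2.02-fold higher than in the input (1.19 to 3.28). The sequences above show that let-7e-3p differs from let-7a-2-3p at 2 positions, and let-7a-2-3p had 0 EVEN reads.

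let-7a-3p can come from MIRLET7A1 on chromosome 9 (94175957 to 94176036) and MIRLET7A3 on chromosome 22 (46112749 to 46112822), both on the plus strand and identical in this arm. It had 799 reads in the input, 72 with LacZ, 17 with EVEN and 23 with ODD probes, or 267, 169, 172 and 53.9 CPM. EVEN and LacZ could not be told apart, at 1.02-fold with an interval of 0.561 to 1.74, and ODD was 3.14-fold below LacZ (1.94 to 5.26). This loss with ODD probes was under 2-fold with TMM (log2 -0.34) and median-of-ratios factors (-0.18). The ratio to let-7a-5p was 0.363 per 100 guide reads in the input, 0.186 with LacZ, 0.191 with EVEN and 0.0417 with ODD probes, and the fall from LacZ to ODD was 4.46-fold (2.76 to 7.48). The guide let-7a-5p can also come from MIRLET7A2, so the ratio for these 2 hairpins alone would be higher if that hairpin adds guide reads.

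let-7b-3p shares its seed with let-7a-3p, and its hairpin MIRLET7B lies with MIRLET7A3 in exons of MIRLET7BHG. It had 227 reads in the input, 11 with LacZ, 13 with EVEN and 11 with ODD probes. The ratio to let-7b-5p was 0.255 per 100 guide reads in the input, 0.0439 with LacZ, 0.0927 with EVEN and 0.0151 with ODD probes. Below the input value it stood 5.80-fold for LacZ (3.18 to 11.8), 2.75-fold for EVEN (1.57 to 5.24) and 16.9-fold for ODD probes (9.26 to 34.3). The pull-downs therefore hold less of this passenger per guide in all 3 cases, with LacZ probes too. By library totals let-7b-5p was 1.97-fold, 4.75-fold and 5.73-fold above the input with LacZ, EVEN and ODD probes. The level of let-7b-3p was 2.94-fold below the input with LacZ and 2.95-fold below it with ODD probes. With EVEN probes its level could not be told from the input (1.73-fold, 0.907 to 3.02).

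let-7c-3p, from an intron of MIR99AHG on chromosome 21, went the same way. It had 154 reads in the input, 8 with LacZ, 3 with EVEN and 7 with ODD probes, and ratios of 1.28, 0.284, 0.265 and 0.119 per 100 reads of let-7c-5p. Against the input these are 4.51-fold (2.23 to 10.6), 4.84-fold (1.62 to 23.8) and 10.8-fold lower (5.09 to 27.2) with LacZ, EVEN and ODD probes. The guide let-7c-5p was by library totals 1.65-fold, 2.85-fold and 3.43-fold above the input in that order.

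let-7f-1-3p, from the chromosome 9 cluster, had 280 reads in the input, 10 with LacZ, 6 with EVEN and 6 with ODD probes. Its ratio to let-7f-5p was 0.132 per 100 guide reads in the input, 0.0264 with LacZ, 0.127 with EVEN and 0.0147 with ODD probes. EVEN could not be told from the input (0.961-fold, 0.350 to 2.12), and LacZ and ODD were 5.01-fold (2.69 to 10.6) and 9.004-fold lower (4.08 to 24.7). let-7f-2-3p, from MIRLET7F2 in an intron of HUWE1 on chromosome X, had 55 reads in the input and 0 in the 3 pull-downs. It was at least 2.05-fold lower with LacZ and at least 2.06-fold lower with ODD probes. Its 18.4 CPM in the input lie under the 30.3 CPM that 0 reads allow in the EVEN library, where a fall was not detectable.

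let-7g-3p, from MIRLET7G in an intron of WDR82 on chromosome 3, had 70 reads in the input, 1 with LacZ, 9 with EVEN and 3 with ODD probes. Against LacZ the EVEN level was 38.7-fold higher (5.36 to 1696), from 9 reads and 1, too few to be tested. It was 3.88-fold above the input with EVEN probes (1.70 to 7.80), 9.97-fold below it for LacZ (1.73 to 399) and 3.33-fold below it for ODD (1.09 to 16.5). The guide let-7g-5p had 2351 EVEN reads, and the ratio, 0.383 per 100 guide reads (0.175 to 0.728), could not be told from the 0.262 of the input (0.204 to 0.331). Its EVEN level, 91.0 CPM (41.6 to 173), lay above the intervals of the other 3 libraries, as that of let-7e-3p did.

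**Figure D3:**
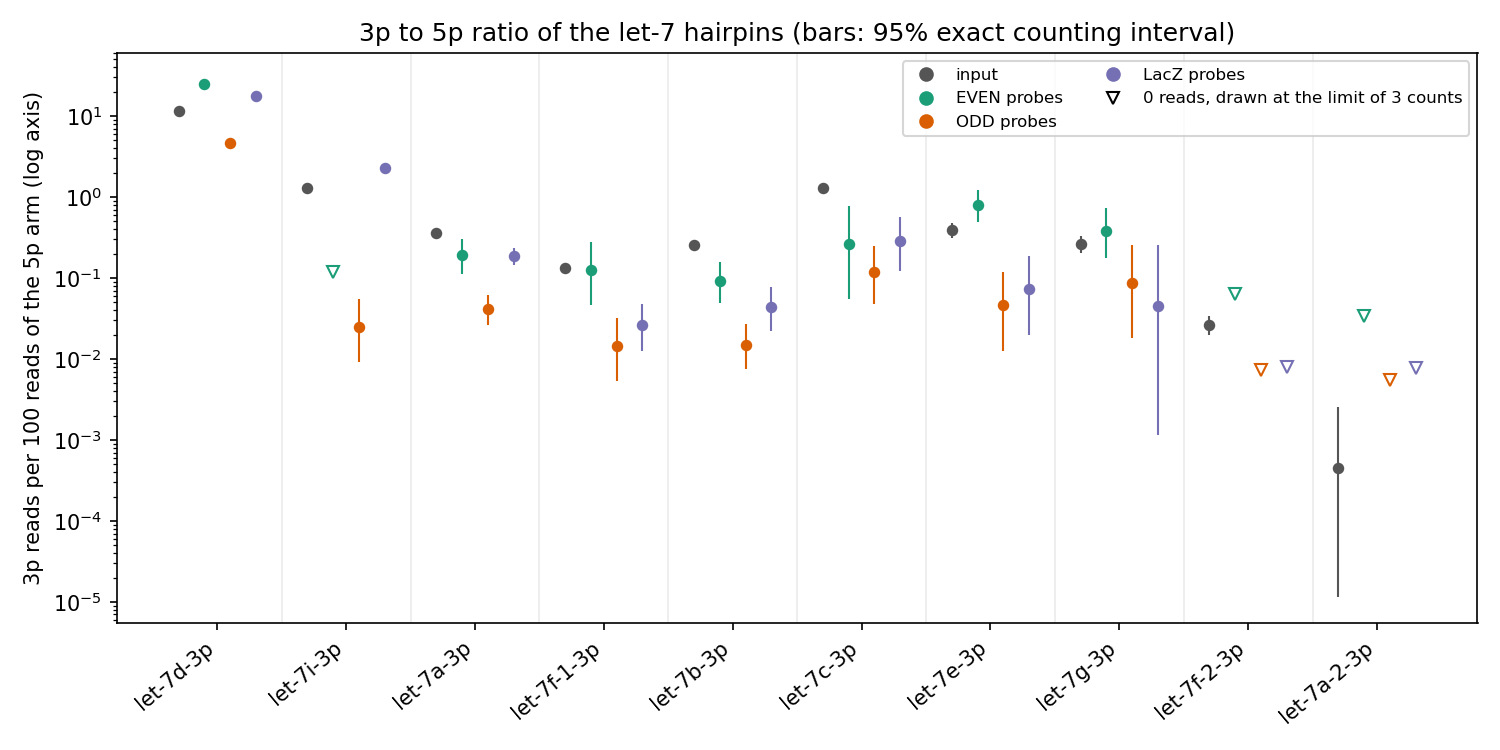
Reads of each 3p arm per 100 reads of the 5p arm of its hairpin (log axis) in the 4 libraries, with 95% exact counting intervals; open triangles mark 0 reads at the limit of 3 counts. let-7d-3p lies between 4.70 and 24.7 in all 4 libraries, and the ODD values are the lowest measured for 6 strands and above LacZ for let-7g-3p. For let-7c-3p, let-7e-3p, let-7f-1-3p and let-7g-3p the ODD and LacZ ratios could not be told apart.

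A miRNA entered a comparison if either library held 20 or more reads of it, and was called at 2-fold on log2 ratios with 0.5 added to each count. For EVEN against LacZ 4 passengers could be tested, with let-7e-3p higher and let-7i-3p lower, where 9.69% of all 289 tested miRNAs were higher and 51.2% lower. For ODD against LacZ 3 were tested and all 3, let-7a-3p, let-7d-3p and let-7i-3p, were lower, where 13% of 300 were higher and 70.3% lower. Against that background the count itself does not set the passengers apart, and with TMM factors, median-of-ratios factors or totals without the 10 most abundant miRNAs only 1, let-7i-3p, remained called. Over all 300 tested miRNAs those scalings gave 103, 96 and 149 lower and 66, 68 and 58 higher. For EVEN against ODD 3 were tested and let-7a-3p, let-7d-3p and let-7e-3p were all higher, where 37.9% of 203 were higher and 18.2% lower. With either TMM or median-of-ratios factors only let-7e-3p was still called. Over all 203 tested miRNAs TMM factors gave 20 higher and 64 lower, and median-of-ratios factors 19 and 64. Between pull-downs, let-7e-3p entered through its EVEN reads alone and let-7i-3p through its LacZ reads alone, so their calls are descriptions.

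Against the input 9 passengers were tested. Apart from let-7a-3p, let-7d-3p, let-7i-3p and the 21 EVEN reads of let-7e-3p, they had fewer than 20 reads in each pull-down and entered through the deep input only. So did let-7a-3p with EVEN probes (17 reads) and let-7i-3p with EVEN (0 reads) and ODD probes (6 reads). With LacZ probes 1 was higher and 6 lower, against 18.1% and 34.3% of 475 tested miRNAs. TMM factors gave 0 higher and 7 lower, median-of-ratios factors 0 and 6, and totals without the 10 most abundant miRNAs 2 and 6. Over all 475 tested miRNAs those scalings gave 63 higher and 246 lower, 73 and 194, and 101 and 134. With EVEN probes 3 were higher, namely let-7d-3p, let-7e-3p and let-7g-3p, and 2 lower, against 18.3% and 52.2% of 464. The lower ones were let-7i-3p and let-7f-2-3p, and the call of let-7f-2-3p comes from the 0.5 added to its 0 reads. With ODD probes 0 were higher and 8 lower, against 13% and 68.6% of 468, and the one not called was let-7d-3p. Under each of the 3 other scalings let-7b-3p, let-7c-3p, let-7e-3p and let-7g-3p lost that call and 4 strands were lower. Over all 468 tested miRNAs 270 were lower with TMM, 237 with median-of-ratios factors and 243 with totals without the 10 most abundant. The median log2 ratio of the 9 was -1.49 with LacZ, -0.52 with EVEN and -1.56 with ODD probes, beside -0.44, -1.06 and -2.19 over all tested miRNAs. With strands of 0 reads placed at the limit of 3 counts, the medians were -1.40, 0.71 and -1.54, beside -0.40, -0.06 and -1.57. Split by precursor type, the longer-overhang strands let-7c-3p and let-7e-3p were both lower with LacZ and ODD probes, and with EVEN probes 1 of the 2 was higher. Of the other 7 strands, 1 was higher and 4 lower with LacZ, 0 higher and 6 lower with ODD, and 2 higher and 2 lower with EVEN probes. Neither ODD median of the passengers given above lay below that over all tested miRNAs. Most of these strands entered through the input alone, so the medians of the levels do not set the passengers apart.

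The passenger to guide ratios gave other counts. For comparison, 531 hairpins outside let-7 had rows for both arms, and the arm with fewer input reads was taken as the minor arm. Among ratios that could be tested, 9 of 9 let-7 ratios were at least 2-fold lower with ODD probes than in the input, where 33% of 88 other hairpins were lower and 26.1% higher. Of these 9, let-7b-3p, let-7c-3p, let-7e-3p, let-7f-1-3p, let-7f-2-3p, let-7g-3p and let-7i-3p had 0 to 11 ODD reads. They entered through their input reads alone, so the count is a description and does not set the let-7 ratios apart. With LacZ probes 6 of 9 were lower and 0 higher, where 24.3% of 103 others were lower and 28.2% higher. These 6 had 0 to 11 LacZ reads and likewise entered through their input reads alone. With EVEN probes 4 of 9 were lower and 2 higher (let-7d-3p and let-7e-3p), where 34.2% of 76 others were lower and 30.3% higher. The 4 lower ratios had 0 to 13 EVEN reads and entered in the same way. With 5 in place of 0.5 added to each count, EVEN gave 2 lower and 4 higher, and let-7c-3p was no longer called. The 4 lower with EVEN probes include let-7f-2-3p, whose interval reaches above the input, and the intervals of let-7g-3p reach the input value with ODD (3.01-fold lower, 0.986 to 14.9) and LacZ probes (5.73-fold, 0.994 to 230). The median log2 change of the let-7 ratios was -3.09 with ODD, -2.09 with LacZ and -0.89 with EVEN probes, beside -0.34, -0.09 and -0.03 for the others. With 0 reads placed at the limit these became -3.06, -1.94 and 0.06, beside 0.36, -0.09 and 0.68. All these medians take in strands that entered through the input alone, so they do not set the let-7 ratios apart.

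**Figure D4:**
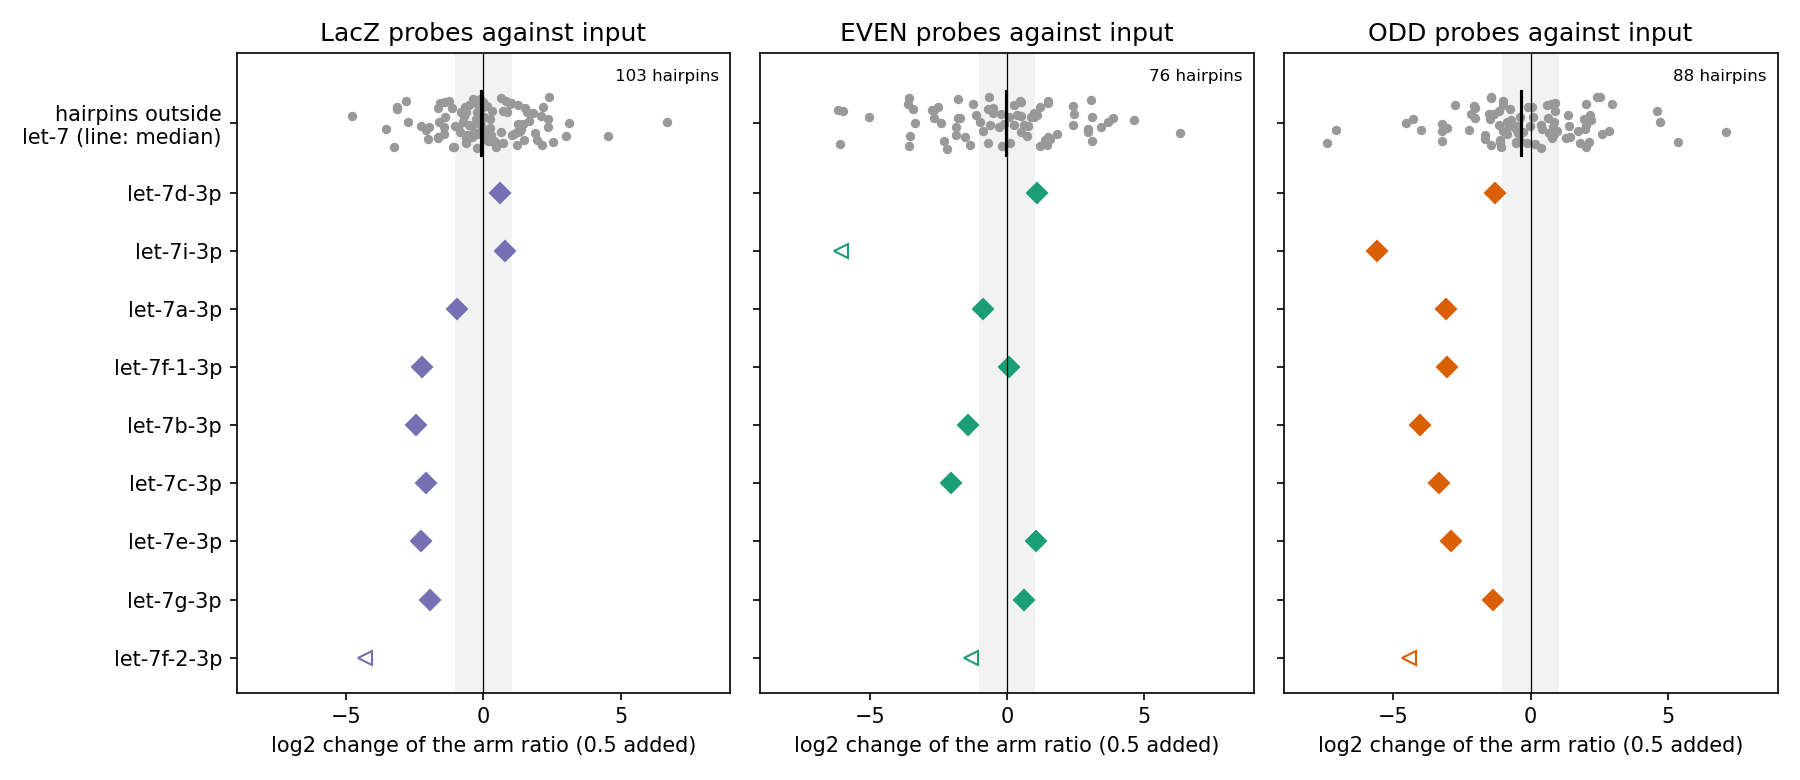
log2 change of the ratio of 3p to 5p reads in each pull-down against the input for 9 let-7 hairpins (diamonds; open triangles where the pull-down has 0 reads, placed by the added 0.5) and of the minor to major arm for hairpins outside let-7 (grey points, black line at the median). The grey band marks less than 2-fold; with ODD probes all 9 let-7 ratios lie left of it.

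These 9 ratios are not independent, since let-7f-1-3p and let-7f-2-3p are divided by the same let-7f-5p reads and all guides share a seed and much of their sequence. Minor arms of the other hairpins were named from the input, the library that these ratios are compared with. Between pull-downs, 4 let-7 ratios were tested for EVEN against LacZ, 1 higher (let-7e-3p) and 1 lower (let-7i-3p), where 20% of 45 other hairpins were higher and 31.1% lower. For ODD against LacZ 3 of 3 ratios were lower, where 20% of 55 others were higher and 23.6% lower. For EVEN against ODD 3 of 3 were higher, where 24.1% of 29 others were higher and 44.8% lower. Unlike the levels, these calls cannot change with the scaling of the libraries. As for the levels, let-7e-3p entered through its EVEN reads alone and let-7i-3p through its LacZ reads alone. Of the strands with too few reads to be tested for EVEN against ODD, ratios were higher at 6.15-fold for let-7b-3p (2.54 to 15.2), 8.66-fold for let-7f-1-3p (2.31 to 32.4) and 4.39-fold for let-7g-3p (1.09 to 25.3), and the interval of let-7c-3p spanned 1 (2.22-fold, 0.370 to 9.75). let-7i-3p, with 0 EVEN and 6 ODD reads, gave no direction, and both libraries held 0 reads of let-7a-2-3p and let-7f-2-3p.

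The chromosome 9 cluster gives 3 passengers from 1 stretch of sequence, let-7a-3p (in part), let-7f-1-3p and let-7d-3p. Their input ratios to the guide were 0.363, 0.132 and 11.6 per 100, and from the input to the LacZ library these moved 1.95-fold lower (1.53 to 2.52), 5.01-fold lower (2.69 to 10.6) and 1.51-fold higher (1.37 to 1.66). Reads of let-7a-5p can also come from hairpins on chromosomes 11 and 22, and those of let-7f-5p from MIRLET7F2 on chromosome X, so only the ratio of let-7d-3p belongs to a chromosome 9 hairpin alone. The 3 strands with the shared UAUACAA seed came to 437 CPM in the input, 219 with LacZ, 364 with EVEN and 93.8 with ODD probes, and let-7d-3p, with its own seed, exceeded this sum in every library.

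miR-98 is the let-7 relative beside MIRLET7F2 on chromosome X, and miR-98-3p has the seed of let-7a-3p. It had 40 reads in the input and 0 in the 3 pull-downs, and was at least 1.47-fold lower with LacZ and at least 1.48-fold lower with ODD probes. The guide miR-98-5p had 13853, 1163, 120 and 1426 reads in the input, LacZ, EVEN and ODD libraries, so that 0 passenger reads with EVEN probes allow up to 2.50 per 100 guide reads, above the 0.289 of the input. Of 41 passenger strands of other families, such as miR-17-3p, miR-21-3p and miR-99b-3p, 14 could be tested for EVEN against LacZ, with 0 higher and 6 lower and a median log2 ratio of -0.51. That median was 0.30 for the 4 let-7 passengers tested there and -1.06 over all 289 tested miRNAs. For ODD against LacZ 15 could be tested, with 2 higher, 11 lower and a median of -1.54. The 3 let-7 passengers tested there had a median of -1.63, and all 300 tested miRNAs had -1.79.

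The miRNAs whose profile over the 4 libraries was nearest to that of let-7d-3p were miR-128-1-5p, miR-99b-5p and miR-18a-3p. Their Euclidean distances on centred log2 shares were 0.095, 0.158 and 0.344, where the median over 280 candidates was 2.48. miR-99b-5p, the deepest of these, had 5228 CPM in the input, 9779 with LacZ, 13259 with EVEN and 3886 with ODD probes, the order found for let-7d-3p. Nearest to let-7i-3p were miR-140-5p, miR-411-5p and miR-33a-5p, at 2.25, 2.26 and 2.38 with a median of 5.57, all with 0 reads in EVEN and 2 to 11 in ODD. They had 143, 148 and 223 CPM with LacZ probes, against 1016 for let-7i-3p. The likeness rests on 4 libraries.

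HIPK3 exon 2 lies on chromosome 11 at 33286413 to 33287511, plus strand, and is 1099 bases long. The reverse complements of the seeds were searched on this strand only: TTGTATA for let-7a-3p, let-7b-3p and let-7f-1-3p, CTGTACA for let-7a-2-3p and let-7g-3p, TTGTACA for let-7c-3p, TCGTATA for let-7d-3p, CCGTATA for let-7e-3p, TTGCGCA for let-7i-3p, and CTACCTC for the guides. None of the 7 occurs in the exon. Of the 1913 distinct seeds of the mature miRNAs counted here with a RefSeq sequence, 140 (7.32%) have such a match. The junction that closes the circle and pairing outside the seed were not searched.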

How the data were processed

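Small RNA of 4 libraries of RD cells was sequenced, 1 library per group. Per the labels' protocols, the libraries were made with a QIAseq miRNA kit and read from one end on an Illumina instrument. Whole-number counts for each mature miRNA were deposited, and so were CPM, which equal each count over its library total to within 1.46e-11. The submitters' processing notes name GRCh38, and the sources used here do not state the trimming, aligner, annotation, strand or whether molecular identifiers were collapsed. Depth ran from 98950 to 2987858 reads, and a count of 0 was read as up to 3 counts.

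The members, lists and tests were chosen with earlier results of these data known. Text names all 10 members, their 8 guides, miR-98 and the 3 miRNAs nearest to each of the 2 most read members. Folds are ratios of shares with exact conditional intervals, and changes of arm ratios are odds ratios with exact conditional intervals. At 0 reads a fold is given as a bound, the limit of its exact 95% interval. Steps were tested on simulated data. Alternatives were scaling by edgeR 4.0.16 (TMM), by DESeq2 1.42.0 (median of ratios) or by totals that leave out each library's 10 most abundant miRNAs; a read minimum of 1 or 100; 5 in place of 0.5 as the added constant; the deposited CPM with 1 added; a 4-fold threshold; and an interval that excludes 1. Python 3.11.15, scipy 1.17.1 and R 4.3.3 were used. Sequences are from RefSeq (GRCh38.p14) and hosts from GENCODE 29, whose hairpin coordinates were equal.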

Additional observations from a re-analysis of the deposited data

Results flagged for a closer look

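With library totals, let-7d-3p moved in opposite directions with the 2 probe sets, each against the shared LacZ library and each with a counting interval that excludes 1. Its share of reads was 1.46-fold that of LacZ with EVEN probes and 0.369-fold with ODD probes. The direction of the share depends on the scaling, since the log2 ratio of ODD to LacZ was -0.15 with TMM and 0.013 with median-of-ratios factors. Its ratio to let-7d-5p was 1.41-fold that of LacZ with EVEN probes and 0.268-fold with ODD probes, a quantity that does not depend on library scaling. With 1 library per group the difference between the probe sets was not tested.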

How the results depend on the processing

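No paired analysis was possible because each group is 1 library. Counts of passengers called, with library totals and the usual minimum, were 2 for EVEN against LacZ, 3 for ODD against LacZ, 3 for EVEN against ODD, and 5, 8 and 7 for EVEN, ODD and LacZ against the input. With TMM or median-of-ratios factors they were 1 for ODD against LacZ, 1 for EVEN against ODD and 4 for ODD against the input, and totals without the 10 most abundant miRNAs also gave 1 and 4 for ODD against LacZ and the input. Counts over all miRNAs under TMM and median-of-ratios factors are given above for these comparisons. With a minimum of 1 read the passengers called were 5 of 8 for EVEN against LacZ. Over all 789 miRNAs tested there, 149 were higher and 248 lower. For EVEN against ODD 8 of 8 were called, where 260 of all 660 were higher and 83 lower. These 8 include let-7i-3p, whose 0 EVEN and 6 ODD reads give no direction. With a minimum of 100 the passengers called were 1 of 2 for EVEN against LacZ and 1 of 1 for EVEN against ODD. Against the input they were 2, 5 and 4 of 6 for EVEN, ODD and LacZ, with fewer strands tested. Over all miRNAs 15 of 158 were higher and 80 lower for EVEN against LacZ. For EVEN against ODD 39 of 118 were higher and 30 lower. Against the input 43 of 303, 41 of 312 and 45 of 307 were higher, and 171, 218 and 106 lower. At 4-fold the passengers called were 1 of 3 for ODD against LacZ, where 20 of all 300 miRNAs were higher and 137 lower. For EVEN against ODD 1 of 3 was called, where 22 of all 203 were higher and 25 lower. Against the input 3, 4 and 2 of 9 were called for EVEN, ODD and LacZ. Over all miRNAs 46 of 464, 42 of 468 and 45 of 475 were higher there, and 153, 245 and 55 lower. With 5 added to each count the passengers called were 4 of 9 for ODD and 3 of 9 for LacZ against the input. Over all miRNAs 69 of 468 and 100 of 475 were higher there, and 222 and 93 lower. Counts of passenger to guide ratios called were 2, 3 and 3 between pull-downs and 6, 9 and 6 against the input. A minimum of 1 gave 5 for EVEN against LacZ, 5 for ODD against LacZ and 7 for EVEN against ODD. A minimum of 100 gave 1, 1 and 3 for EVEN against LacZ, EVEN against ODD and LacZ against the input, and 4-fold gave 2 for EVEN against the input. Shares over the other hairpins were not computed at these settings. The log2 ratio of let-7d-3p for ODD against LacZ turned to 0.013 with median-of-ratios factors, that for ODD against the input turned positive under all 3 other scalings (0.099 to 0.58), and let-7f-2-3p for EVEN against the input turned to 1.33 in level and 1.90 in ratio with 5 added, a constant that outweighs its 0 reads. The summed share of the passengers over totals without the 10 most abundant miRNAs was 0.323% in the input, 0.783% with EVEN, 0.247% with ODD and 0.568% with LacZ probes. Without let-7d the passengers came to 0.434, 0.190, 0.0284 and 0.410 per 100 guide reads in the input, EVEN, ODD and LacZ libraries, so the closeness of EVEN to the input rests on let-7d-3p. Where causes of these changes are not stated, the cause was not tested. Depth limits the EVEN library most, where 0 reads allow 30.3 CPM.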
